A study of Mus musculus with 24 samples.

Results

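Protein-protected sites (PPSs) that lay wholly inside coding sequence (CDS) numbered 88808 of the 356432 PPSs considered over 3 time points of MEL cell differentiation. They were chosen by position alone. A PPS was a member when all of its bases lay in 1 CDS exon of a GENCODE protein-coding transcript on the same strand, and PPSs of 20 to 40 nt, the size of a ribosome footprint, were left out. Day 0 gave 30315 of these CDS sites, day 2 gave 28466 and day 4 gave 30027. The length limits fell where sites were common. Of 1121 PPSs of 19 nt, 687 were wholly inside the CDS, and so were 691 of the 1205 left out at 20 nt. Of the 8055 left out at 40 nt, 2381 were wholly inside the CDS, and of the 8000 kept at 41 nt, 2351 were. In all, 37361 PPSs wholly inside the CDS were left out by their length.

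MEL cells are a murine erythroleukemia line that is blocked at an early erythroid stage and resumes erythroid differentiation in DMSO, so they stand for red cell precursors only as far as a transformed line can. Undifferentiated cells (day 0) were compared with cells grown for 2 or 4 days in 2% DMSO, and all cultures were crosslinked with formaldehyde. Each lysate was digested with a nuclease for single-stranded RNA (ssRNase, RNaseONE) or for double-stranded RNA (dsRNase, RNase V1), either while the proteins were still present (footprinting) or after their removal (structure only). With 2 replicates this made 24 libraries in 12 groups. A PPS is a stretch where footprinting reads exceeded structure-only reads, and the name of each PPS lists which of the 4 call sets of its day (nuclease by replicate) it was merged from.

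Coding exons are read by ribosomes, but the same bases are also bound by SR proteins and hnRNPs that guide splicing, by the exon junction complex that is deposited near spliced junctions, and by RNA helicases and export factors. A protected site inside the CDS therefore has no single class of binder. A base of the CDS carries a codon as well as any binding motif, so the protein sequence limits which motifs can occur there.

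To show what such sites look like, 5 of the highest-scoring CDS sites that were called with both nucleases and in both replicates are printed, at most 2 a day and among those of 41 to 120 nt. They lay in Cntrl, a centrosome protein, in Srcap, a chromatin remodeler, in Cnnm2, a membrane protein of magnesium handling, in Adgrv1, a very large adhesion receptor, and in Brwd1, a bromodomain protein. The sequences are RNA-sense DNA letters read from the GRCm38 assembly, 5′ to 3′, and capitals mark the in-frame codons for glutamate and aspartate (GAA, GAG, GAT and GAC), whose frequency is described further on.
Cntrl, day 0, chr2:35155350-35155458, plus strand: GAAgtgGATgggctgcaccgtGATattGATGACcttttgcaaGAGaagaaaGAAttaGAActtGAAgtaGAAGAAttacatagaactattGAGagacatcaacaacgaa
Srcap, day 2, chr7:127522081-127522167, plus strand: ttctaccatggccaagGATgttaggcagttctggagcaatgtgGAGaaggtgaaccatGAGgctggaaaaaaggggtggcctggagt
Cnnm2, day 2, chr19:46761960-46762037, plus strand: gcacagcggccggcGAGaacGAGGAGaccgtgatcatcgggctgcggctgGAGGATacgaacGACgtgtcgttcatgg
Adgrv1, day 4, chr13:81494574-81494680, minus strand: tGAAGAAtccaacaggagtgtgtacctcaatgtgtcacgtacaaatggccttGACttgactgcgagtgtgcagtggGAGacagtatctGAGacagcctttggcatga
Brwd1, day 4, chr16:96003860-96003944, minus strand: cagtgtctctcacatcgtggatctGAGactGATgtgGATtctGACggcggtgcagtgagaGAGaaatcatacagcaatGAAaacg

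The Cntrl site, in coding exon 24 of 42, held 12 codons for acidic residues among its 36 full codons. The Srcap site, in an exon that is not part of the longest Srcap CDS, held 3 of 28. No in-frame stop codon occurred in any of the 5. All of them overlapped a PPS of at least 1 other day, and the Cntrl site did so at day 2 but not at day 4.

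The number of CDS sites per call set was compared first. ssRNase gave 10741 and 9704 CDS sites in replicates 1 and 2 at day 0, 10512 and 13719 at day 2, and 11212 and 10568 at day 4. dsRNase gave 10942 and 12436 at day 0, 10503 and 6300 at day 2, and 13315 and 11046 at day 4. The day 0 and day 4 counts overlapped between replicates for dsRNase, while replicate 2 of day 2 stood apart as the smallest set. One technical feature of the calls has to be kept beside these numbers. Plus-strand sites made up 61.0% of the CDS sites of the day 0 ssRNase replicate 2 set and 44.2% of those of the day 4 ssRNase replicate 2 set, against 49.5% to 51.5% in the other 10 sets. The part of this imbalance in the results was not tested, and values below for ssRNase that are not split by replicate include these sets.

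The share of a call set's PPSs that lay wholly inside the CDS moved in opposite directions for the nucleases. With ssRNase it was 19.2% and 19.0% in the day 0 replicates (Wilson 95% intervals 18.8 to 19.5 and 18.7 to 19.4, which cover counting error only) and 23.5% and 22.0% in the day 4 replicates (23.2 to 23.9 and 21.6 to 22.3). With dsRNase it was 39.3% and 38.1% at day 0 (38.7 to 39.8 and 37.6 to 38.6) and 24.2% and 27.5% at day 4 (23.9 to 24.6 and 27.0 to 27.9). The replicate ranges of day 0 and day 4 did not overlap for either nuclease. The ssRNase share thus rose by 3.24 percentage points (2.80 to 4.51 when each day 4 replicate was set against each day 0 replicate), and the dsRNase share changed by -12.8 points (-15.0 to -10.6). In replicate 1, where strands were balanced, the ssRNase share went from 19.2% to 23.5%. As the number of dsRNase CDS sites was 11689 ± 1056 at day 0 and 12180 ± 1604 at day 4 (SD, n = 2), the lower dsRNase share at day 4 went with more PPSs outside the CDS. With ssRNase, CDS sites numbered 16926 at day 0 and 16935 at day 4, while all PPSs with an ssRNase call numbered 84983 and 73127. The higher ssRNase share at day 4 thus went with fewer PPSs outside the CDS. At day 2 the shares were 20.2% and 18.6% with ssRNase and 34.5% and 42.5% with dsRNase, and the pairs with day 0 ran from -0.614 to 1.20 points and from -4.82 to 4.36 points, so that neither had a direction.

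**Figure D1:**
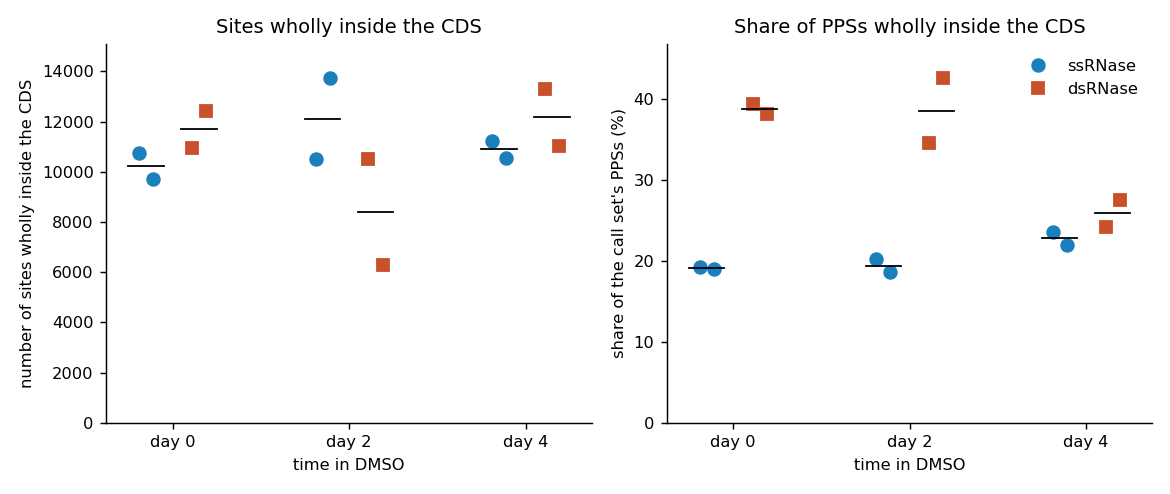
Number of PPSs wholly inside the CDS (left) and their share of all PPSs of the call set in percent (right) at each day, with 1 point per replicate (circles, ssRNase; squares, dsRNase) and a bar at the mean of 2. The dsRNase share is between 38.1% and 39.3% at day 0 and between 24.2% and 27.5% at day 4, while the numbers on the left overlap between these days.

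Over both nucleases the CDS share went from 26.4% at day 0 through 23.8% to 24.6% at day 4. The change from day 0 to day 4 was -1.78 points (-2.09 to -1.06 over the pairs of replicates). It joins the opposite movements of the nucleases, and among PPSs with an ssRNase call alone it was 3.24 points. The change to day 2 was -2.56 points (-4.53 to -0.326).

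CDS sites were called with dsRNase more often than other PPSs before day 4. Over days 0, 2 and 4 their median length was 59.0, 55.0 and 60.0 nt, against 65.0, 59.0 and 63.0 nt for all other PPSs. The rule itself favours short sites, since a long one is more likely to cross an exon boundary. Sites that touched the CDS without lying wholly inside it had medians of 76.0, 69.0 and 76.0 nt and are counted among the other PPSs. Of the CDS sites, the share with a dsRNase call on days 0, 2 and 4 was 64.1% (63.5 to 64.6), 51.9% (51.3 to 52.5) and 66.0% (65.5 to 66.5), while the other PPSs had 37.5%, 28.2% and 63.8%. Within replicates the excess was seen at day 0 (56.3% against 30.2%, and 62.8% against 36.7%) and at day 2 (56.3% against 36.5%, and 34.6% against 13.2%). At day 4 it was absent in replicate 1 (61.4% against 62.0%) and smaller in replicate 2 (58.2% against 50.3%). Both nucleases called 19.9%, 20.9% and 22.4% of the CDS sites at days 0, 2 and 4. Both replicates called 29.5%, 29.5% and 35.4% of them, close to the 31.2%, 31.2% and 35.9% of other PPSs. A single call lay behind 64.5%, 64.3% and 58.8%, so most CDS sites rest on 1 replicate and 1 nuclease.

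Joining CDS sites that overlapped on the same strand gave 56782 regions. Of these, 6681 (11.8%) were present at all 3 days, 12336 at day 0 only, 10765 at day 2 only and 11494 at day 4 only. Of day 0 CDS sites, 48.8% overlapped some PPS of day 4 (48.2 to 49.4), against 45.6% of the other day 0 PPSs. In the reverse direction, 48.5% of day 4 CDS sites overlapped a day 0 PPS, against 42.2% of the other PPSs. With day 2 the CDS sites were not ahead in each case. Of day 0 CDS sites 42.9% overlapped a day 2 PPS, against 45.6% of others, and of day 4 CDS sites 45.2%, against 45.7%. Of day 2 CDS sites, 47.9% overlapped a day 0 PPS and 50.4% a day 4 PPS, against 42.9% and 46.8% of others. When single replicates were paired, the day 0 to day 4 overlap ran from 37.5% to 41.7%, below the 45.2% and 46.0% found between replicates of day 0. Merging within a day gives replicates shared coordinates and raises the latter values.

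The position of the sites along the CDS was then measured in 8586 genes, using the longest CDS of each. Each CDS was cut into 10 equal deciles, numbered from the start codon. Protection was highest in decile 2 or 3 and lowest in decile 10, on each day and with each nuclease. At day 0, 11.6% of the bases of decile 1 lay in a CDS site, 14.2% of decile 2, 12.7% of decile 5 and 9.04% of decile 10. Day 2 gave 10.5%, 12.3%, 10.9% and 8.03% at the same positions, and day 4 gave 11.1%, 13.9%, 12.7% and 9.35%. Decile 10 was below decile 1 in all 12 call sets. With ssRNase the difference was -2.79, -2.54 and -1.94 points over the days, and with dsRNase it was -1.04, -0.917 and -0.730 points. The fall from decile 2 to decile 9 was also larger with ssRNase, where the ratio of decile 2 to decile 9 was 1.43, 1.31 and 1.31, than with dsRNase, where it was 1.23, 1.27 and 1.18. In each replicate the ssRNase ratio was above the dsRNase ratio of the same day, with 1.40 and 1.54 against 1.24 and 1.27 at day 0. Day 2 gave 1.34 and 1.34 against 1.25 and 1.27, and day 4 gave 1.30 and 1.33 against 1.20 and 1.14. A site that reached past the start or the stop codon was no member, which lowers the outermost deciles by construction.

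**Figure D2:**
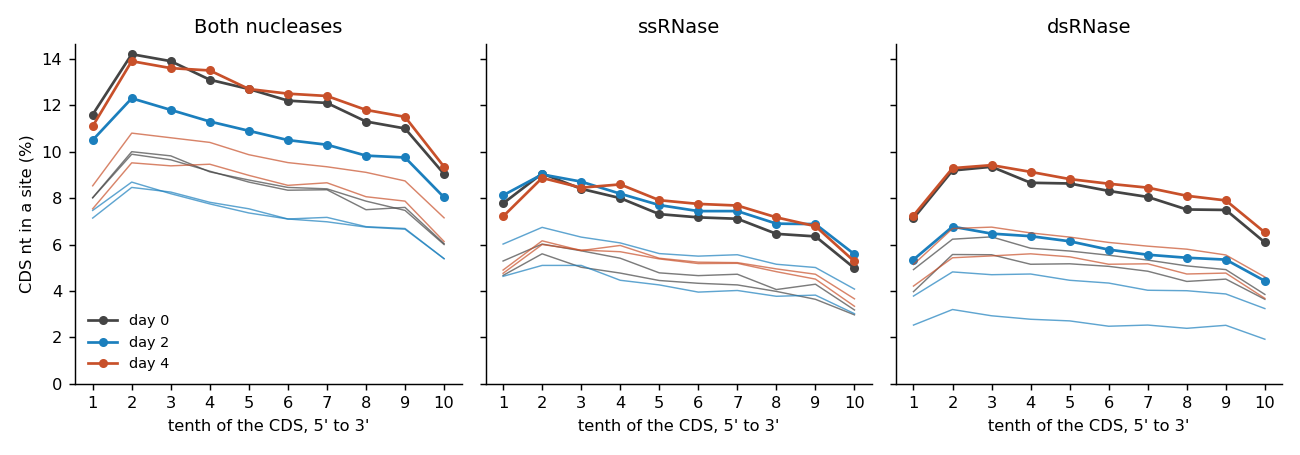
Percentage of CDS bases inside a CDS site in each decile of the CDS, 5′ to 3′, for both nucleases, ssRNase and dsRNase; thick lines are all sites of a day and thin lines single replicates (8586 genes). Protection peaks in decile 2, 3 or 4 and is lowest in decile 10, at 9.04%, 8.03% and 9.35% of bases at days 0, 2 and 4.

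Most CDS sites lay in internal coding exons, which held 1.98, 1.82 and 1.94 sites per kb at days 0, 2 and 4. First coding exons held 1.59, 1.70 and 1.55 sites per kb and last coding exons 1.42, 1.35 and 1.48. The 395 single-exon CDSs held 1.56, 1.67 and 1.60 sites per kb. By bases inside a site the order differed. Internal exons had 12.7%, 10.7% and 12.7%, first exons 11.0%, 11.1% and 10.9%, last exons 9.52%, 8.38% and 10.2%, and single-exon CDSs 12.0%, 12.5% and 12.6%. Sites that crossed the start or stop codon were no members, which lowers first, last and single exons by construction. The median host exon measured 165, 168 and 166 nt at the 3 days, against 121 nt for all coding exons of these genes, and the median site filled 35.0%, 32.2% and 34.8% of its exon. A longer exon offers more bases and admits longer sites, so a longer median host follows from the rule. Set against bases, exons of 1000 nt or more held 11.6%, 12.1% and 12.6% of the sites and 13.1% of the coding nt.

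Site number and protected length behaved differently with exon length. Part of this is by construction, since a member can be no longer than its exon, which limits the bases per site in short exons. At day 0, exons under 200 nt held 1.94 sites per kb and exons of 1000 nt or more 1.64, but the bases inside a site were 11.8% and 12.4%. Day 2 gave 1.77 and 1.61 sites per kb and 10.0% and 11.0% of bases. At day 4 the counts were nearly level, at 1.89 and 1.77 sites per kb, and protection was higher in the long exons, at 14.5% of bases against 11.6%.

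Long coding exons were more protected at day 4 than at day 0 with both nucleases. In exons of 1000 nt or more, dsRNase sites covered 5.40% and 5.68% of bases in the day 0 replicates, 4.65% and 2.68% at day 2, and 8.84% and 7.44% at day 4. Both day 4 replicates were above all others. RNA levels were not analysed here, so that more protection and more of an mRNA, or more cells that hold it, cannot be told apart in this or any later change between days. In exons under 200 nt the same sets covered 4.49% and 5.09% at day 0 and 5.12% and 4.31% at day 4, which overlap. The number of dsRNase sites per kb went from 0.625 and 0.677 to 0.952 and 0.777 in the long exons. ssRNase sites covered 5.58% and 5.03% of long-exon bases at day 0 and 6.61% and 6.89% at day 4. They also covered more of the exons under 200 nt, at 4.47% and 4.01% and then 4.80% and 4.58%. Whether the long-exon rise differed between the nucleases was not tested. The dsRNase ratio of sites per kb, long to short exons, was 0.911 and 0.859 at day 0 and 1.21 and 1.18 at day 4. The ssRNase ratio was 0.950 and 0.942 at day 0 and 0.925 and 1.01 at day 4, which overlap. Without the 10 genes that held most CDS sites, the dsRNase ratios were 0.895 and 0.834 at day 0 and 1.19 and 1.16 at day 4.

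**Figure D3:**
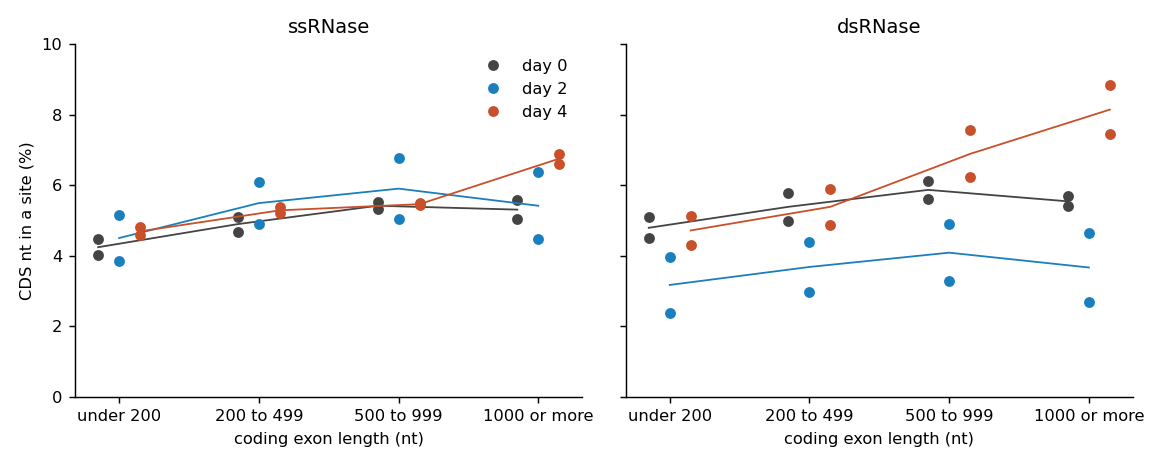
Percentage of CDS bases inside a CDS site by length of the coding exon, for ssRNase (left) and dsRNase (right), with 1 point per replicate and lines through the means of 2. In exons of 1000 nt or more the day 4 dsRNase replicates reach 8.84% and 7.44%, against 5.40% and 5.68% at day 0, while day 0 and day 4 overlap in exons under 200 nt.

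Counted exon by exon, dsRNase coverage was higher in both day 4 replicates than in both day 0 replicates in 288 of 884 exons of 1000 nt or more, and lower in 110. Over all 25750 coding exons with dsRNase coverage on either day, 12.6% were higher and 11.3% lower by this rule, and among the exons under 200 nt 10.9% were higher and 10.6% lower. In the long exons the share was 32.6% in the higher direction and 12.4% in the lower one. For ssRNase the long exons gave 29.0% higher and 15.8% lower, against 15.4% and 10.8% of all 22947 exons. Between these lengths the dsRNase share went up with exon length in the higher direction (13.4% in exons from 200 nt and 22.4% in exons from 500 nt) and to a smaller extent in the lower one (13.2% and 15.8%).

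The 5 long exons with the largest dsRNase gain were named by size of gain, after the values were seen. The single coding exon of Ranbp6, an importin-like nuclear transport gene of 3315 coding nt, had 606 and 1168 nt in dsRNase sites at day 0 and 2611 and 2189 nt at day 4. Coding exon 12 of Golgb1, a giant Golgi tethering protein, went from 188 and 70 nt to 1891 and 1241 nt of its 5129 nt. The first coding exon of Irs2, an adaptor of the insulin receptor, went from 271 and 168 nt to 1665 and 1622 nt of 3961. Coding exon 9 of Atrx, a chromatin remodeler, went from 1165 and 1362 nt to 2513 and 2367 nt of 3014, and coding exon 15 of Golga4, another golgin, from 566 and 969 nt to 2190 and 1431 nt of 4211.

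Many CDS sites stopped exactly at a splice junction. Among sites in internal coding exons, 9.58% started at the first base of the exon and 13.6% ended at its last base at day 0. The values were 8.73% and 12.8% at day 2 and 10.6% and 15.2% at day 4, whereas any single position 60 nt from a junction held between 0.406% and 0.533% of the starts or ends. The lists give each site as 1 block of genomic coordinates, and the rule admits no site that runs past its coding exon. Ends exactly at a junction are thus favoured by construction, and the size of this part was not tested. Of the sites that ended exactly at a junction, 32.8%, 32.8% and 34.7% at days 0, 2 and 4 had a PPS of the same day that started exactly at the next coding exon. Of sites that ended 1 to 15 nt before the junction, 2.38%, 2.47% and 3.01% did. Among members under 20 nt, 52.3%, 53.5% and 57.5% touched a junction, against 20.5%, 18% and 22.3% of those of 41 nt or more. Members under 20 nt made up 5.43%, 7.41% and 5.85% of the CDS sites but 0.855%, 1.15% and 1.44% of other PPSs.

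Beyond the exact junction, site ends gathered on the upstream side. At day 0, 26.6% of sites in internal coding exons ended 1 to 15 nt before the 3′ junction and 9.11% ended 16 to 30 nt before it. On the 5′ side 20.3% started 1 to 15 nt after the junction and 13.6% started 16 to 30 nt after it. The difference between the sides was larger in the ssRNase sets. In them, ends within 1 to 15 nt were 1.63 and 1.64 times as frequent as starts at day 0, 1.66 and 1.48 times at day 2, and 1.65 and 1.52 times at day 4. In the dsRNase sets the ratios were 1.03 and 1.08, then 1.23 and 1.12, then 1.10 and 1.11. The ssRNase and dsRNase ranges did not overlap on any day. The share of sites that ended exactly at a junction was also higher in the ssRNase sets, with 16.5% and 17.7% at day 0 and 20.7% and 19.5% at day 4, than in the dsRNase sets, with 13.6% and 13.4% and then 14.5% and 13.7%.

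**Figure D4:**
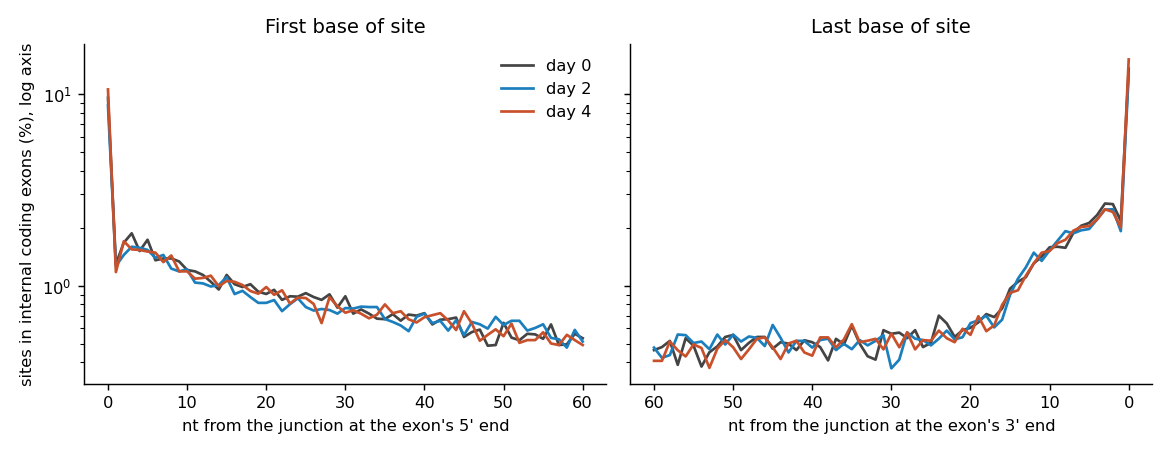
Share of CDS sites in internal coding exons (percent, log axis) whose first base lies at each distance from the junction at the exon's 5′ end (left) or whose last base lies at each distance from the junction at its 3′ end (right), by day. Between 12.8% and 15.2% of sites end exactly at the 3′ junction, and ends are frequent over the last 15 nt of the exon while starts decline slowly.

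Site starts showed a small excess at the first position of codons, which was lost without the sites that started at a junction. The first base of a CDS site was at codon position 1 in 34.6% (34.1 to 35.1), 34.7% (34.2 to 35.3) and 35.1% (34.6 to 35.6) of sites on days 0, 2 and 4, where an equal share is 33.3%. Without the sites that started exactly at a junction the shares were 33.1%, 33.5% and 33.5%. Position 2 then held 34.1%, 33.7% and 33.2%, and position 3 held 32.8%, 32.8% and 33.3%.

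CDS sites that had flanks free of PPSs were rich in purines relative to those flanks. Each site was compared with windows of its own length directly before and after it in the same exon that touched no PPS of any day, which existed for 7422, 6971 and 7158 sites at days 0, 2 and 4. At day 0 these sites had 2.74 points more A, 2.82 points more G and 4.47 points less C than their flanks, and 1.09 points less T. At day 2 the differences were 1.80 for A, 4.19 for G, -4.91 for C and -1.08 for T, and at day 4 they were 2.88, 3.10, -4.57 and -1.42 points. As the gain of G was smaller than the loss of C, G+C content was below that of the flanks, by -1.65, -0.722 and -1.47 points. The loss of C was near equal with ssRNase (-4.50, -4.85 and -5.02 points) and dsRNase (-4.68, -5.21 and -4.40 points), while ssRNase sites gained more G and dsRNase sites more A. ssRNase CDS sites had a mean G+C content of 51.4%, 52.9% and 51.7%, and dsRNase CDS sites had 48.4%, 49.9% and 48.5%.

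Purine-rich words followed the same direction in the sites with a flank, to which the shares of sites below refer. GAAGAA, a word of the kind SR proteins bind in exonic splicing enhancers, was found on the sense strand of 7.67% of sites and 4.62% of flanks at day 0 (Wilson 95% intervals 7.08 to 8.29 and 4.19 to 5.08). It was in 7.55% and 3.97% at day 2 and in 8.72% and 4.39% at day 4, with intervals apart on each day. GGAGGA was in 5.55%, 6.63% and 6.27% of sites and 4.17%, 4.61% and 4.13% of flanks, also apart. Of the other 5 words searched, GTGTG was more frequent in sites at day 0 (6.17% against 4.89%) and day 2 (7.22% against 5.32%), with intervals that met at day 4 (6.17% against 5.17%). TTTTTT was in 0.404%, 0.287% and 0.335% of sites and 0.656%, 0.654% and 0.670% of flanks, with intervals that met at day 0 and were apart at days 2 and 4. CTGCTG (5.04% against 4.90% at day 0), GGTGG (7.63% against 7.24%) and the Pumilio word TGTANATA (0.243% against 0.152%) had overlapping intervals at day 0, and also at days 2 and 4. By nuclease, CTGCTG was more frequent in ssRNase sites than in their flanks at day 2 (7.43% against 5.71%), and GGTGG was less frequent in dsRNase sites at day 4 (6.13% against 7.51%), with intervals apart. GTGTG was more frequent in ssRNase sites on each day, with intervals apart (7.75% against 5.63%, 8.31% against 6.01% and 8.23% against 6.43%). In dsRNase sites its intervals met on each day (5.20% against 4.49%, 5.95% against 4.75% and 5.12% against 4.91%). Of the 5 sequences printed above, those of Cntrl and Adgrv1 hold GAAGAA and that of Cnnm2 holds GGAGGA. A word found in a site is a description of its letters only.

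Read in frame, the same bias fell on particular codons. Codons for the acidic residues glutamate and aspartate made up 16.0% of the 631982 codons inside CDS sites at day 0, against 12.0% of codons outside sites in the same genes. The shares were 16.7% against 12.0% at day 2 and 16.5% against 12.0% at day 4, and the 6 replicate values inside sites ran from 16.0% to 17.0%. The glutamate codon GAA was 1.44, 1.37 and 1.53 times as frequent inside sites as outside at days 0, 2 and 4, and GAG was 1.27, 1.47 and 1.33 times as frequent. The aspartate codon GAT was 1.34, 1.34 and 1.37 times as frequent. At the other end, the serine codon TCC reached 0.549, 0.536 and 0.539 times its frequency outside, the proline codon CCC 0.567, 0.555 and 0.540 times, and the phenylalanine codon TTC 0.620, 0.581 and 0.613 times. The second phenylalanine codon, TTT, was at 0.908, 0.800 and 0.910, so that codons for the same residue differed. The lysine codon AAG stood at 1.19, 1.24 and 1.24, while AAA stood at 1.14, 0.919 and 1.18. Codons were pooled over genes, and genes with many sites weigh more inside sites than outside. Differences in composition between genes therefore enter these values, and their part was not tested. Codons are not independent of each other, and no test was made across them.

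**Figure D5:**
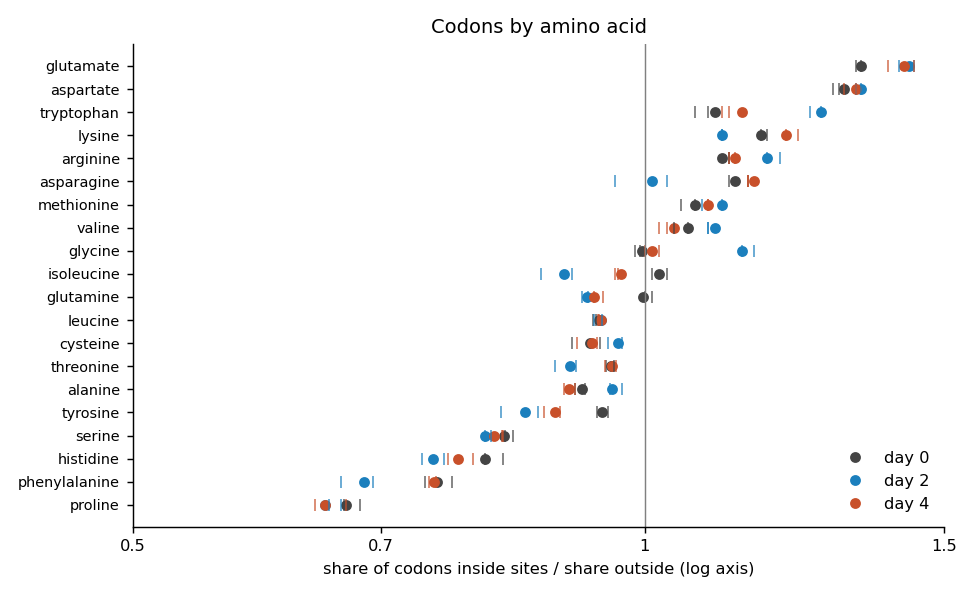
Frequency of each amino acid's codons inside CDS sites divided by that outside sites in the same genes, pooled over genes (log axis), by day. Circles are all sites of a day and ticks single replicates. Glutamate (1.34, 1.43 and 1.42) and aspartate (1.31, 1.34 and 1.33) are highest and proline is lowest (0.667, 0.649 and 0.649) at days 0, 2 and 4.

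CDS sites were found in 8745 of 21866 annotated protein-coding genes. Day 0 had 7197 of these genes, day 2 had 7319 and day 4 had 6981, and 5434 genes had a CDS site at all 3 days. Of these, 2014 had a site of both replicates on each day. Genes with sites on a single day numbered 544, 483 and 400 for days 0, 2 and 4. The sites were concentrated. 1405 genes, 16.1%, held 50% of all CDS sites, 1131 genes held 20 or more over the 3 lists, and 1049 held 1. Among all gene hosts, 569 sites (0.641%) lay in the CDS of more than 1 gene.

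The labelled cell type was checked on marker genes. All 10 erythroid markers, which include Alas2, Gata1 and Klf1, had a CDS site on some day. Day by day, 6, 7 and 8 of them had one at days 0, 2 and 4. Of 10 markers of other blood lineages, 2 had a CDS site on some day. Itga2b, an integrin of megakaryocytes that early erythroid progenitors also express, had 15, 18 and 14 CDS sites at days 0, 2 and 4, and Pf4 had 1, 1 and 0. The other 8, which include Mpo and Cd3e, held no CDS site. Over all 21866 annotated protein-coding genes, 8745 had a CDS site on some day.

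The genes with most CDS sites, summed over the 3 lists, encode very large proteins. At day 0 alone Mdn1, a ribosome assembly factor outside these 10 that was picked after its values were seen, had the most, with 77 sites against 31 at day 2 and 19 at day 4. Kmt2d, a histone H3 lysine 4 methyltransferase of 16825 coding nt on chromosome 15, had 69 sites at day 0, 60 at day 2 and 75 at day 4. Sites covered 18.4% and 21.1% of its CDS in the day 0 replicates, 16.1% and 19.1% at day 2 and 33.4% and 31.8% at day 4. Both day 4 replicates lay above both day 0 replicates, a change of 11.1 points in all sites (10.7 to 15.0 over the pairs). Its relative Kmt2c went the other way, with 26.4% and 24.7% at day 0 against 22.2% and 22.3% at day 4. Adgrv1 had 26 sites at day 0, 55 at day 2 and 59 at day 4, and its CDS coverage of 5.81% and 5.27% became 13.4% and 14.8% and then 18.6% and 22.1%. The ssRNase sites of Adgrv1 numbered 19, 50 and 50 and the dsRNase sites 11, 21 and 37.

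The other 7 of these 10 genes split in direction. Mycbp2, a ubiquitin ligase, was higher at day 4, with 10.0% and 10.9% of its CDS covered at day 0 and 21.2% and 19.3% at day 4. Birc6, an inhibitor of apoptosis, was also higher (19.2% and 20.5%, then 24.9% and 21.3%), as was Vps13d, a lipid transfer protein (19.7% and 21.1%, then 25.6% and 24.9%). Ahnak2 and Ahnak, a pair of giant scaffold proteins, were lower at day 4. Ahnak2 had 40.5% and 43.0% at day 0 and 26.7% and 23.4% at day 4, and Ahnak had 16.1% and 22.2%, then 15.4% and 13.7%. In Ahnak the ssRNase sites went from 37 to 11 while the dsRNase sites went from 33 to 43. The replicates overlapped for Macf1, a spectraplakin with 66, 52 and 65 sites, and for Herc1, a ubiquitin ligase with 59, 51 and 60 sites.

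Per kb of CDS, the densest genes with at least 1000 coding nt were of ordinary size. Canx, the calnexin chaperone of the endoplasmic reticulum, held 32 sites over the 3 lists in 1773 coding nt, or 18 per kb. Nxf1, the mRNA export receptor, held 37 sites, or 17.7 per kb, and Nucb1, a calcium-binding Golgi protein, 24 sites, or 17.4 per kb. Mfap1a and Mfap1b, spliceosome proteins, each held 23 sites (17.5 per kb). Their counts were identical on each day and in each replicate, so the calls do not tell these near-identical copies apart. In Canx, dsRNase sites (7, 12 and 9 at days 0, 2 and 4) outnumbered ssRNase sites (2, 3 and 3), whereas Nxf1 shifted from 9 ssRNase and 5 dsRNase sites at day 0 to 5 and 14 at day 4. The Canx and Nxf1 replicates of day 4 overlapped those of day 0.

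CDS coverage of a gene was called higher or lower at a later day when both of its replicates lay beyond both day 0 replicates. By this rule 2230 of 8262 genes were higher at day 4, 27.0% of those tested, and 1942 were lower, 23.5%. At day 2, 1716 of 8345 genes were higher (20.6%) and 2323 lower (27.8%). Replicate sets of a day share merged coordinates, and the part of this in these shares was not tested.

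The 5 largest rises to day 4 were in short CDSs. Ufsp1, a protease that processes the ubiquitin-like protein UFM1, had no CDS site at day 0, 59.4% and 50.1% of its 651 coding nt covered at day 2, and 58.7% and 65.9% at day 4. Mageb16, a MAGE family gene with a single coding exon, had 5.42% and 0% at day 0, 32.0% and 31.8% at day 2 and 47.8% and 66.5% at day 4. Both were already higher at day 2. Dstn, the actin-severing protein destrin, had 0% and 13.3% at day 0, 12.5% and 9.90% at day 2, and 57.0% and 60.8% at day 4. Aurkaip1, a mitochondrial ribosome component, had no site at day 0 and 50.7% and 50.8% at day 4. Hypk, a cofactor of protein N-terminal acetylation, had 12.4% and 0% at day 0, 44.4% in both day 2 replicates and 14.0% and 56.8% at day 4. It was higher at day 2 as well, and its lower day 4 replicate was close to a day 0 value.

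The 5 largest falls were in short CDSs too, and 2 of them were histone genes. Ubl4a, which helps to insert tail-anchored proteins into membranes, had 13.4% and 63.5% at day 0, 3.18% and 0% at day 2 and no CDS site at day 4. Pdf, a mitochondrial deformylase, had 41.1% and 52.1% at day 0, 15.3% and 0% at day 2 and no site at day 4, and Dctd, a deoxycytidylate deaminase, had 18.4% and 48.2%, then 6.98% and 10.3%, then no site. Hist1h2bm, an H2B gene, had 36.5% and 65.6% at day 0, 59.5% in both day 2 replicates, and 2.65% and 0% at day 4. Hist1h1e, a linker histone, had 39.3% and 68.9% at day 0 and 21.6% and 0% at day 4. In Ubl4a, Dctd and both histone genes the day 0 replicates lay far apart.

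Gene groups of the red cell were counted next, each beside the 27.0% higher and 23.5% lower among all genes at day 4, whose median change was 0 points. All gene lists were chosen with earlier results of these data known, so their counts are descriptions only. Of 16 genes tested in the red cell membrane and skeleton list, 11 were higher and 0 lower, with a median change of 7.54 points. Sptb, the beta chain of erythroid spectrin, had 14.9% and 16.1% of its CDS covered at day 0, 17.8% and 18% at day 2 and 26.6% and 23.7% at day 4. Ank1, the ankyrin that ties spectrin to the membrane, had 12.1% and 13.6%, then 17.0% and 19.1%, then 22.1% and 15.5%, and Kel, a blood group protein, had 21.7% and 17.7% at day 0 and 27.6% and 24.7% at day 4. Epb42 and Tfrc were named from the list of erythroid markers, which is counted separately below. Epb42, a membrane skeleton protein, had no CDS site at day 0 and 13.4% and 9.14% at day 4. Tfrc, the transferrin receptor for iron uptake, had 16.2% in both day 0 replicates and 23.8% and 27.5% at day 4. Its ssRNase sites went from 5 to 0 while its dsRNase sites went from 6 to 9.

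Of 10 erythroid transcription factor genes, 5 were higher and 3 lower at day 4 (median 5.02 points). Ldb1, which bridges GATA1 complexes, had 15.5% and 10.4% at day 0, 25.9% and 29.7% at day 2 and 41.8% and 26.9% at day 4. Foxo3, a factor of late erythroid maturation, had 8.73% and 3.10% at day 0 and 33.1% and 25.4% at day 4, and Zfpm1, the GATA1 cofactor FOG1, had 6.13% and 8.24%, then 11.7% and 14.3%. The 8 heme synthesis genes gave 2 higher and 4 lower (median -6.82 points). Alas2, the first and rate-setting enzyme of the pathway in red cells, had 22.5% and 18.2% at day 0 and 13.3% and 5.96% at day 4. Cpox had 34.0% and 37.6%, then 11.2% and 12.2%, while Ppox had 28.5% and 29.2%, then 34.1% and 31.2%. Among 10 erythroid markers, 9 could be compared, with 4 higher and 2 lower (median 7.17 points). Of 7 globin genes annotated with a CDS, 3 had CDS sites. Hbb-bs and Hbb-bt had 2 and 3 sites at day 2 and 1 and 0 at day 4, and Hba-a1 had 2 sites at day 0 and none later. These few sites lie in near-identical gene copies, where reads may be split, and are uncertain.

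Among groups of housekeeping and growth genes, the replication and cell cycle list had 9 of 17 genes lower and 2 higher at day 4 (median -11.9 points), and 9 lower and 1 higher at day 2. Of all genes tested at day 2, 20.6% were higher and 27.8% lower, which is the share to set beside day 2 counts. Mcm5, a subunit of the replicative helicase, had 15.5% and 24.7% at day 0 and 6.22% and 3.18% at day 4. Its partner Mcm2 was higher, with 12.5% and 15.1% at day 0 and 23.2% and 21.3% at day 4, and Mcm6 overlapped (20.3% and 26.4%, then 25.1% and 10.5%). Of 60 cytosolic ribosomal protein genes, 28 were higher and 5 lower at day 4 (median 9.12 points), against 11 higher and 12 lower of 54 at day 2. Rpl6 had 13.1% and 7.21% at day 0 and 32.8% and 22.5% at day 4, and Rpl7a 5.51% and 23.3%, then 23.9% in both. The Rpl10a replicates overlapped (10.9% in both, then 37.3% and 10.3%).

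The other lists held genes of both directions at day 4. Translation factors gave 13 higher and 11 lower of 52 at day 4, and 8 higher and 23 lower of 53 at day 2. Among all genes, day 2 gave 20.6% higher and 27.8% lower. Eif4g3, Eif3c and Eif5b, which held most sites among them (54, 43 and 38), overlapped between day 0 and day 4. Chaperones gave 3 higher and 3 lower of 13 at day 4, and 1 higher and 8 lower of 13 at day 2. Tcp1, a subunit of the TRiC folding chamber, had 42.8% and 38.3% at day 0, 16.1% and 10.2% at day 2, and 22.1% and 13.0% at day 4. Cct2 of the same chamber had 33.8% and 31.1%, then 14.8% and 5.48%, then 36.7% and 39.3%, and Hsph1, a heat shock protein, 28.5% and 27.3%, then 15.0% and 15.9%, then 35.4% and 30.8%. Of 50 histone genes tested at day 4, 10 were higher and 13 lower (median -19.4 points), and at day 2, 22 of 59 were higher and 8 lower. Among all genes tested at day 4, 27.0% were higher and 23.5% lower. Over the whole histone list, coverage was 10.5% and 24.7% in the day 0 replicates and 14.0% and 12.4% at day 4. These ranges overlap, so the list had no settled direction at day 4 despite its median. The linker histone Hist1h1c had 14.9% in both day 0 replicates and 33.5% and 37.6% at day 4, opposite to Hist1h1e, and Hist1h1b overlapped (17.8% and 42.2%, then 39.6% and 39.0%). Histone genes resemble each other closely, so their reads may be shared.

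Zinc finger genes named Zfp gave 49 higher and 36 lower of 162 at day 4. Zfp646, with 5441 coding nt in 2 coding exons, had 13.2% and 14.3% at day 0, 20.8% and 25.3% at day 2 and 34.2% and 28.8% at day 4. Zfp292 had 29.1% and 22.4%, then 18.3% and 19.9% at day 4, and Zfp638 had 17.4% and 19.4%, then 10.3% and 13.2%.

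The highest-scoring site was also the longest at days 0 and 4 but not at day 2. At day 0 the highest-scoring and longest CDS site was the same, 456 nt in coding exon 16 of Ofd1, a ciliary gene (chrX:166406066-166406521, minus strand), joined from 11 calls. At day 4 a site of 880 nt in Ranbp6 (chr19:29810387-29811266, minus strand) was both, joined from 22 calls of both nucleases and both replicates. It spanned CDS positions 1685 to 2564 of 3315. At day 2 the highest score belonged to the Srcap site printed above, and the longest site, 378 nt in the first coding exon of Adcy9, an adenylyl cyclase (chr16:4417931-4418308, minus strand), had calls of ssRNase only, in both replicates. Each of these sites overlapped a PPS of another day.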

How the data were processed

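PIP-seq libraries of MEL cells were made by the authors at 3 days with 2 nucleases, with and without protein, in 2 replicates. Per the methods and the labels, adapters were trimmed (cutadapt 1.2.1), reads were aligned to mm10 (TopHat2 2.0.10), and PPSs were called with a modified CSAR at an FDR of 5% and merged to 1 list a day. The deposited lists hold position, strand, call names and a score given by the authors, at least 5.40. They hold no read counts, so the depth behind a site is not known from them, and Wilson 95% intervals cover counting of sites only.

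Groups came from the labels and call sets from the call names. Per the methods, replicates were biological and each was split into the libraries of both nucleases. Replicates of a day share merged coordinates, so their spread may be understated. Sites were placed on GENCODE M21 CDS exons (bedtools 2.31.1, Python 3.11.15, pandas 2.3.3, numpy 2.4.6), with the longest CDS of a gene, of 300 nt or more, for positions. Sequences came from RefSeq's GRCm38 assembly. With 2 replicates no p-value was computed, and changes are ranges over the 4 pairs of replicates. The code was tested on simulated data. Words were searched on the sense strand only.

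Genes named were the 10 with most sites, the 5 with most per kb (CDS of 1000 nt or more), the 5 largest rises and falls without overlap of replicates (5 sites or more), the 3 of each list with most sites, and each day's highest-scoring and longest site. Sequences were those of each day's 2 highest-scoring sites of 41 to 120 nt with calls of both nucleases and both replicates, of which 1 is not reported here. Members and lists were chosen with earlier results of these data known. Alternatives changed the length filter, score, list size, replicate and nuclease support, merging, transcript choice, exon boundaries and overlap, and left out each replicate.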

Additional observations from a re-analysis of the deposited data

Results flagged for a closer look

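The share of a call set's PPSs that lay wholly inside the CDS went in opposite directions with the nucleases from day 0 to day 4. With ssRNase it rose by 3.24 points and was higher in every pair of replicates (2.80 to 4.51 points), and with dsRNase the change was -12.8 points and was lower in every pair (-15.0 to -10.6 points). CDS sites numbered 16926 at day 0 and 16935 at day 4 with ssRNase, and 19424 and 19818 with dsRNase. All PPSs went from 84983 to 73127 with ssRNase and from 51107 to 78496 with dsRNase, so both shares moved mainly with PPSs outside the CDS. The dsRNase change minus the ssRNase change was -16.0 points. The difference was not tested. It was the one such case among 20 comparisons of 10 measures between the nucleases.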

How the results depend on the processing

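The lists give no read depth, so whether a gene without a CDS site was too shallow to be called is unknown. No paired analysis was possible because no result comes from a test and the labels link no replicate of one day to a replicate of another. Within a day both nucleases share a replicate, and comparisons between them are given by replicate where replicates are printed. The cause of each difference below was not tested. Leaving out single genes or the sites at junctions was chosen after seeing the data.

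The change in the share of PPSs wholly inside the CDS from day 0 to day 4, -1.78 points, was -3.19 with all lengths kept, -0.920 with calls of both replicates, -2.27 for an overlap of 1 nt and -12.8 with dsRNase calls, and it reversed to 3.24 with ssRNase calls. Leaving out 1 replicate gave -1.97 to -1.15. The day 2 change was -0.134 with ssRNase calls and -4.41 to -0.954 without 1 replicate, the first without day 2 replicate 1 and the last without day 2 replicate 2. The number of CDS sites was 38641 at a score of 10 or more, 27992 with calls of both replicates, 53494 with ssRNase calls, 54015 with dsRNase calls, 55516 from single calls, and 77768 to 80457 without 1 replicate. The change in the share with a dsRNase call, 1.93 points, was -3.55 with calls of both replicates and -2.68 to 3.93 without 1 replicate, where it turned negative without day 0 replicate 1, so it has no settled direction.

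Coverage of decile 10 minus decile 1, -2.24 points over the days, was -1.93 at a score of 10 or more, -1.64 with both replicates, -2.57 with ssRNase, -0.984 with dsRNase, -0.729 from single calls, -1.85 with strict exon boundaries, -2.95 in CDSs of 1500 nt or more and -2.15 to -2.05 without 1 replicate. Sites per kb in the longest over the shortest exons, 0.897, was 0.788 with all lengths, 1.03 at a score of 10 or more, 1.06 with both replicates, 0.946 with ssRNase, 0.985 with dsRNase, 0.810 from single calls, 0.917 with strict boundaries, 0.794 for sites of 41 to 80 nt, 0.885 without the 10 genes with most sites and 0.898 to 0.923 without 1 replicate. The lower density in long exons therefore did not hold at the higher score or with both replicates. The rise of the dsRNase ratio to day 4, 0.251, was 0.204 with all lengths, 0.347 at the higher score, 0.394 with both replicates, 0.166 from single calls, 0.142 for sites of 41 to 80 nt and 0.188 to 0.339 without 1 replicate.

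Codon position 1, 34.8%, was 35.2% with both replicates and with dsRNase, 34.4% with ssRNase, 34.6% from single calls, 33.4% without sites that start at a junction and 34.8% to 34.9% without 1 replicate. The share at a junction, 22.6%, was 26.5% at the higher score, 22.6% with equal numbers of top-scoring PPSs, 27.6% with both replicates, 24.2% with ssRNase, 22.4% with dsRNase, 20% from single calls, 22.5% with strict boundaries and 22.9% to 23.1% without 1 replicate. G+C of sites minus flanks, -1.28 points, was -1.21 with all lengths, -1.64 at the higher score, -1.77 with both replicates, -0.502 with ssRNase, -1.99 with dsRNase, -1.17 from single calls and -1.33 to -1.24 without 1 replicate.

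Genes with a CDS site at all 3 days, 5434, were 2802 at the higher score, 2014 with both replicates and 4764 to 5024 without 1 replicate. Genes higher at day 2, 1716, were 2594 with both replicates, 711 from single calls and 1716 to 2779 without 1 replicate (2779 and 2712 without day 2 replicates 1 and 2). Genes lower at day 2, 2323, were 1031 from single calls and 2323 to 3466 without 1 replicate. Genes higher at day 4, 2230, were 717 from single calls and 2230 to 3423 without 1 replicate, the highest without day 4 replicate 2. Genes lower at day 4, 1942, were 1047 from single calls and 1942 to 3003 without 1 replicate (3003 and 2951 without day 0 replicates 1 and 2). With 1 replicate left, a gene needs to pass fewer comparisons. The same holds with calls of both replicates, where the replicates of a day have identical coverage by construction. A higher count under these settings is therefore no sign of firmer calls.

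Of 58 named genes, 42 were called at day 4, 2 kept the call under every alternative and 23 turned sign under at least 1. The single-call setting leaves out any site joined from more than 1 call. A gain of calls at a site can thus lower coverage under it, and a loss of calls can raise it. The part of this in the turned signs was not tested. From single calls the day 4 minus day 0 change in coverage turned to -2.87 points in Hsph1, -5.19 in Cct2, 15.8 in Tcp1, -10.0 in Rpl6, -17.8 in Rpl7a, -1.95 in Tfrc, -4.08 in Foxo3, -0.877 in Ppox, 4.51 in Cpox, -2.34 in Kmt2d, 8.86 in Ahnak2, -4.54 in Birc6, -4.24 in Vps13d, -2.51 in Mycbp2, -1.76 in Sptb, -0.234 in Kel, -8.85 in Mcm2 and 7.60 in Zfp638. With ssRNase calls it turned to -6.53 in Hsph1, -13.1 in Tfrc, -2.04 in Zfpm1, 2.65 in Hist1h2bm and 7.76 in Hist1h1e. With dsRNase calls it turned to -3.38 in Hsph1, -2.70 in Ppox and 1.48 in Ahnak, with all lengths to -0.0338 in Birc6, and at a score of 10 or more to -7.12 in Nucb1.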
